A study of Mus musculus with 9 samples.

Results

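Zmynd10 and Cfap126, a pair of genes of motile cilia and flagella, were followed with 7 other genes whose proteins assemble dynein arms, in testis RNA of Prm2-deficient mice. Zmynd10 and Cfap126 were chosen by their higher normalized counts in Prm2-/- than in Prm2+/+ testis, so their values in that comparison are a description and carry no test. The others, Dnaaf1, Dnaaf2, Dnaaf3, Dnaaf5, Lrrc6, Dyx1c1 and Spag1, are named for the role of their proteins. Of these 9 genes, 7 had a row under their symbol among the 38685 genes and loci of the deposited table and all 7 were among the 14893 genes tested. Dnaaf3 and Dyx1c1 had no row under these symbols, the only names looked up, and their levels were not analysed here.

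Testes came from male C57BL/6 mice with the Prm2 gene intact (Prm2+/+), disrupted by gene editing on 1 allele (Prm2+/-) or disrupted on both alleles (Prm2-/-), with 3 libraries per genotype. The tunica albuginea, the capsule of the testis, was removed before RNA extraction, and the age of the males was not given in the sources used here. Libraries were made with QuantSeq, which reads polyadenylated RNA near its 3′ end. The study describes the 3 libraries of a genotype as biological replicates. Values are normalized counts, that is, counts divided by 1 size factor per library, and behind them lay 3629929 to 4490411 recovered counts per library. Prm2 itself had 29716 to 42766 normalized counts over the 9 libraries and a log2 fold change (LFC) of 0.20 between Prm2-/- and Prm2+/+ (SE 0.13, adjusted p = 0.746 in limma), so its transcript level does not check the labels. Replicate 3 of Prm2+/+ was the lowest library, at under 50% of the next lowest, for 1080 tested genes (7.25%), against 0.477% to 0.96% for each of the other libraries, and for 3 of the 7 members, Dnaaf2, Dnaaf5 and Spag1. In RNA of whole testis, fewer cells of a type and less RNA per cell cannot be told apart.

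Dynein arms are the motors that make cilia and sperm flagella beat. They sit in an outer and an inner row on the microtubule doublets of the axoneme, and they are put together in the cytoplasm before transport into the cilium or flagellum. Dynein arm assembly factors, together with heat shock chaperones and the R2TP co-chaperone complex, fold and join the heavy, intermediate and light chains. Loss of such a factor in humans causes primary ciliary dyskinesia, in which cilia and sperm are often immotile. In the testis, the axoneme of the sperm tail is built in round and elongating spermatids.

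Zmynd10 encodes a zinc finger protein of the cytoplasm that works with LRRC6 in the assembly of dynein arms. The gene (ENSMUSG00000010044) lies on the plus strand of chromosome 9 of GRCm38, from 107547298 to 107551319, with 5 annotated transcripts. Zmynd10 had 21.9, 46.1 and 39.8 normalized counts in the Prm2+/+ libraries. In Prm2+/- it had 47.5, 27.4 and 50.4, and in Prm2-/- it had 1246, 1187 and 1182. The Prm2-/- libraries were all high and close together, and the other 6 were all low, with overlapping ranges in Prm2+/+ and Prm2+/-. The mean was 35.9 ± 12.6 (SD, n = 3) in Prm2+/+, 41.7 ± 12.5 in Prm2+/- and 1205 ± 35.7 in Prm2-/-. This is a 33.6-fold higher mean in Prm2-/- than in Prm2+/+ and a 28.9-fold higher mean than in Prm2+/-. The lowest Prm2-/- library exceeded the highest of the other 6 by 23.5-fold. The low libraries were not at the limit of detection, since they held 23 to 57 recovered counts of Zmynd10.

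Cfap126 encodes Flattop, a protein of the axoneme and the basal body of cilia, and not an assembly factor of dynein arms. The gene (ENSMUSG00000026649) lies on the plus strand of chromosome 1, from 171113918 to 171126967, with 8 annotated transcripts. Cfap126 had 29.5, 38.6 and 37.6 normalized counts in Prm2+/+. The Prm2+/- libraries had 57.3, 63.0 and 39.8, and the Prm2-/- libraries had 811, 1021 and 1073. Again the 3 Prm2-/- libraries stood above all others, and each Prm2+/- library lay above every Prm2+/+ library by a much smaller step. The means were 35.2 ± 5.0 (SD, n = 3) in Prm2+/+, 53.4 ± 12.1 in Prm2+/- and 968 ± 139 in Prm2-/-, which makes Prm2-/- 27.5-fold higher than Prm2+/+ and 18.1-fold higher than Prm2+/-. The lowest Prm2-/- library was 12.9-fold above the highest of the other 6.

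**Figure D1:**
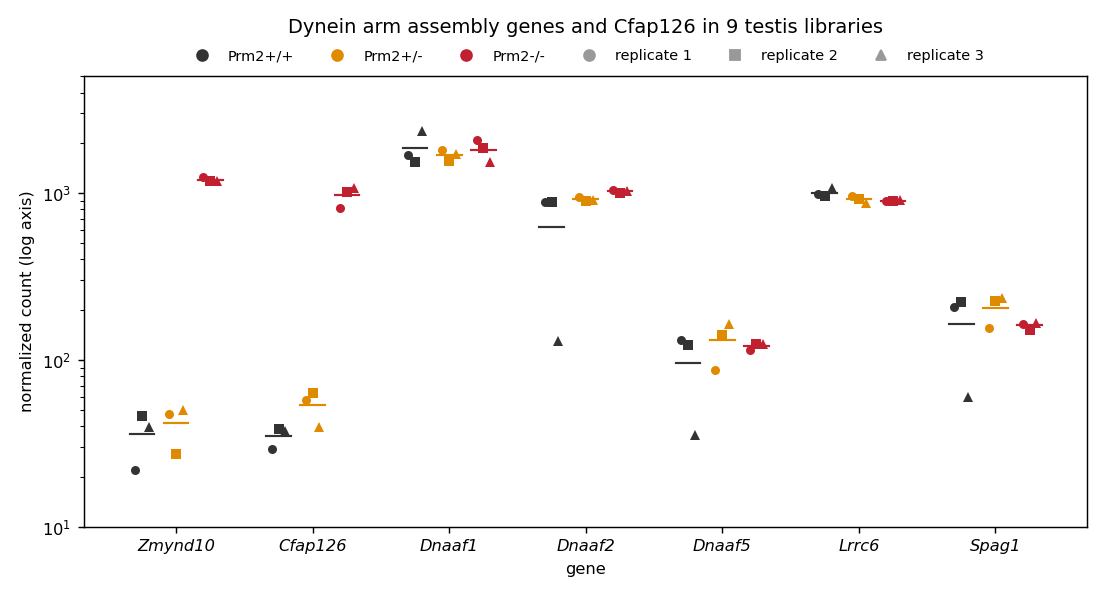
Normalized counts (log axis) of the 7 genes with a row in each of the 9 libraries, coloured by genotype, with a symbol for each replicate number and the mean of each genotype as a line. Zmynd10 (1182 to 1246) and Cfap126 (811 to 1073) are high in the 3 Prm2-/- libraries alone, whereas the means of the other 5 genes in Prm2-/- are 0.897-fold to 1.62-fold those in Prm2+/+, with low points of Dnaaf2, Dnaaf5 and Spag1 in replicate 3 of Prm2+/+.

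The fitted LFC between Prm2-/- and Prm2+/+ was 5.10 (SE 0.31) for Zmynd10 and 4.74 (SE 0.21) for Cfap126, fitted to log2(normalized count + 1). Against Prm2+/- it was 4.87 for Zmynd10 and 4.17 for Cfap126, a comparison that uses the same Prm2-/- libraries. Members past an adjusted p of 0.05 and an LFC of 0.5 were these 2 of 7 between Prm2-/- and Prm2+/+, where 0.181% of all tested genes were called, and the same 2 of 7 between Prm2-/- and Prm2+/-, where 0.175% were called. Because these genes were picked for this difference, nothing is read from that share. For 10 of the 14893 tested genes (0.0671%) the lowest Prm2-/- library was more than 10-fold above the highest of the other 6, Zmynd10 and Cfap126 among them, and for 353 genes (2.37%) it was above it by any margin.

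Levels that jump between libraries also occurred in this table without regard to genotype. Within at least 1 genotype, 1803 of the tested genes (12.1%) differed by more than 10-fold between the highest and the lowest library, after adding 1 to each value. None (0) of the 7 members did. Zmynd10 varied 2.11-fold within Prm2+/+, 1.84-fold within Prm2+/- and 1.05-fold within Prm2-/-, and Cfap126 varied 1.31-fold, 1.59-fold and 1.32-fold. A choice by Prm2-/- against Prm2+/+ favours genes that are steady within these genotypes, and 7 members are few, so nothing is read from this. Whether such jumps have a part in the difference of these genes was not tested.

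The comparison of Prm2+/- with Prm2+/+ did not enter the choice of Zmynd10 and Cfap126, but shares the Prm2+/+ libraries with the comparison that did. Among the 7 members 0 were called there, against 0.0806% of all tested genes. An unadjusted p under 0.05 in limma was found for 1 member and for 632 of the 14893 genes tested. Zmynd10 had an LFC of 0.23 (95% interval -0.49 to 0.95, adjusted p = 0.869 in limma). For Cfap126 the LFC was 0.57 (95% interval 0.09 to 1.05), with an adjusted p of 0.842 in limma, although its groups did not overlap. Such a lack of overlap was seen for 2 of 7 members, Cfap126 and Dnaaf2, and for 9.44% of all tested genes.

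**Figure D2:**
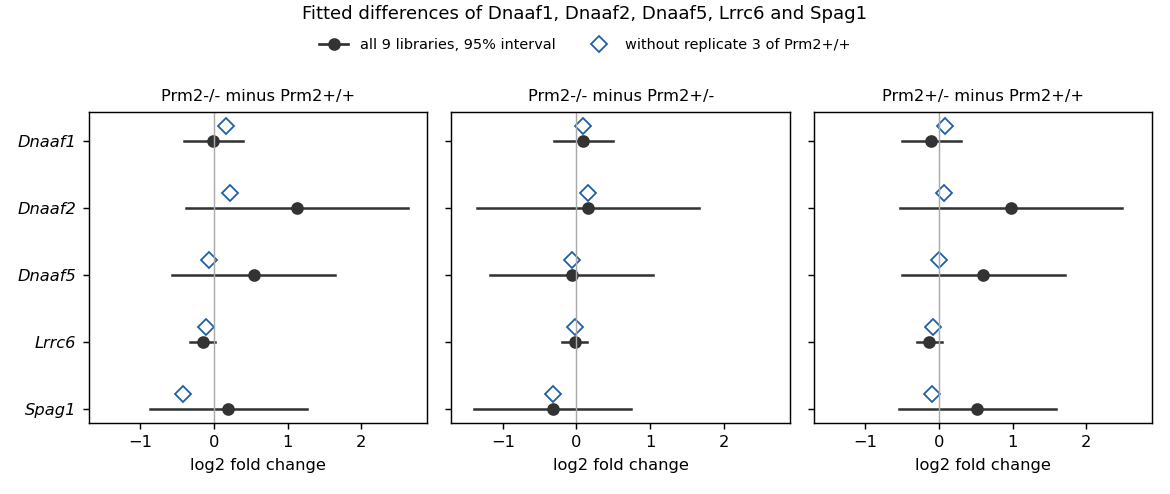
Fitted log2 differences of Dnaaf1, Dnaaf2, Dnaaf5, Lrrc6 and Spag1 in the 3 comparisons of genotypes, with filled points and 95% intervals for all 9 libraries and open diamonds for the value without replicate 3 of Prm2+/+. The intervals of all 5 genes include 0, and the diamonds of Dnaaf2 (0.22) and Dnaaf5 (-0.06) between Prm2-/- and Prm2+/+ lie nearer to 0 than the values with all libraries (1.13 and 0.54).

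The other assembly factors did not pass the test in any comparison. Dnaaf1, a leucine-rich repeat protein of dynein preassembly, lies on the plus strand of chromosome 8, from 119575235 to 119598454. It had 1684, 1534 and 2347 normalized counts in Prm2+/+, 1801, 1564 and 1727 in Prm2+/- and 2077, 1853 and 1535 in Prm2-/-. The genotypes overlapped throughout, and the LFC between Prm2-/- and Prm2+/+ was -0.01 (95% interval -0.41 to 0.39, adjusted p = 0.995 in limma). Lrrc6, whose protein is the partner of ZMYND10, lies on the minus strand of chromosome 15, from 66379858 to 66500910. It had 992, 956 and 1070 normalized counts in Prm2+/+, 965, 919 and 869 in Prm2+/- and 900, 900 and 907 in Prm2-/-. Every Prm2-/- library was below every Prm2+/+ library, by an LFC of -0.15 (95% interval -0.33 to 0.02, adjusted p = 0.716 in limma), which did not pass the test.

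Dnaaf2, also called Kintoun, acts with the chaperones in the folding of dynein heavy chains. It lies on the minus strand of chromosome 12, from 69189087 to 69198429. The gene had 880, 880 and 130 normalized counts in Prm2+/+, 952, 892 and 913 in Prm2+/- and 1037, 995 and 1035 in Prm2-/-. All libraries lay between 880 and 1037 except replicate 3 of Prm2+/+, at 14.8% of the mean of the other Prm2+/+ libraries, and the 3 genotypes did not overlap. The LFC between Prm2-/- and Prm2+/+ was 1.13 (SE 0.65, adjusted p = 0.734 in limma). It was 0.22 (SE 0.06, adjusted p = 0.418 in limma) without replicate 3 of Prm2+/+, the lowest adjusted p over the alternatives, which ranged up to 0.99995. Between Prm2-/- and Prm2+/- the LFC was 0.15, and it did not pass the test with or without that replicate.

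Dnaaf5, a protein of HEAT repeats, lies on the plus strand of chromosome 5, from 139150223 to 139186510. It had 131, 122 and 35.4 normalized counts in Prm2+/+, 87.0, 142 and 164 in Prm2+/- and 114, 125 and 125 in Prm2-/-. Its LFC between Prm2-/- and Prm2+/+ was 0.54 (SE 0.48, adjusted p = 0.778 in limma) and became -0.06 without replicate 3 of Prm2+/+. Spag1, a GTP-binding protein with tetratricopeptide repeats, lies on the plus strand of chromosome 15, from 36178099 to 36235621. It had 208, 222 and 59.7 normalized counts in Prm2+/+, 155, 225 and 235 in Prm2+/- and 164, 152 and 167 in Prm2-/-. Its LFC was 0.20 (SE 0.46, adjusted p = 0.927 in limma), and -0.42 (SE 0.18, adjusted p = 0.603, the lowest over the alternatives, which ranged up to 0.99995) without replicate 3 of Prm2+/+, so that its direction turned. In both genes replicate 3 of Prm2+/+ was the lowest of the 9 libraries. Each Prm2-/- library of Spag1 lay below the other Prm2+/+ replicates.

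The LFCs of Zmynd10 and Cfap126 between Prm2-/- and Prm2+/+ were 4.78 to 5.30 and 4.62 to 4.86 when each of the 9 libraries was left out in turn. The pair was chosen by this comparison in these same libraries, so nothing is read from how steady these LFCs were. Between Prm2-/- and Prm2+/+, 4 of 7 members did not overlap, against 14% of all tested genes, and without the chosen pair it was 2 of 5, Dnaaf2 and Lrrc6, 1 higher and 1 lower in Prm2-/-. Between Prm2-/- and Prm2+/-, 3 of 7 did not overlap, against 14.7% of all tested genes, of which 1, Dnaaf2, was outside the chosen pair.

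Of the genes beside and across Zmynd10 and Cfap126, none (0) was called between Prm2-/- and Prm2+/+ in limma. Nprl2, which ends 1591 bases before Zmynd10 on the same strand, had 106 to 182 normalized counts over the 9 libraries, with an LFC between Prm2-/- and Prm2+/+ of -0.17 (adjusted p = 0.839 in limma). Rassf1, which begins 235 bases after Zmynd10, had 0 to 28.5 and Gm34106, which overlaps exons of Zmynd10 on the other strand, had 0 to 3.17, and neither had enough counts for a test. Sdhc, a subunit of succinate dehydrogenase that ends 197 bases from Cfap126 on the other strand, had 152 to 410, with an LFC of 0.30 (adjusted p = 0.795 in limma). The nearest gene before Cfap126 was Gm27844, 34016 bases away, which was listed at 0 in all libraries. The counting is not stated to use strand, so reads of Zmynd10 and of Gm34106 cannot be told apart.

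**Figure D3:**
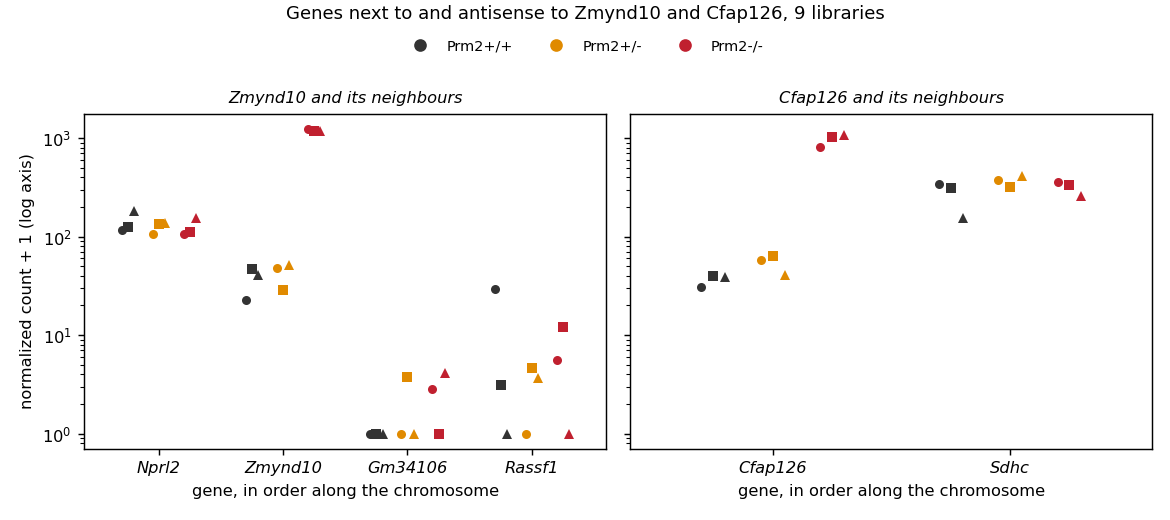
Normalized counts (log axis of the value plus 1) of Zmynd10 and Cfap126 and of the genes beside or across them in the 9 libraries, coloured by genotype and with a symbol for each replicate number. In the 3 Prm2-/- libraries Zmynd10 and Cfap126 lie at 811 or more, while the ranges of Nprl2, Rassf1, Gm34106 and Sdhc overlap between Prm2-/- and Prm2+/+.

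Other members have overlapping genes too, with reads that the counting could split. Dnaaf1 overlaps an exon of Taf1c on the other strand, whose 9 libraries ranged from 0 to 138 and were listed at 0 in 4 of them. Dnaaf2 overlaps 9330151L19Rik on the other strand, at 17.7 to 27.6 normalized counts. The Dnaaf3 locus, on the minus strand of chromosome 7 from 4522933 to 4532453, shares exons with Tnni3, which had 577 to 601 normalized counts in Prm2-/- and up to 770 in the others and an LFC of -0.21 (adjusted p = 0.695 in limma) between Prm2-/- and Prm2+/+. On the other strand Dnaaf3 overlaps exons of Gm15873, which had 99.4 to 142 in Prm2+/+ and 154 to 182 in Prm2-/-, an LFC of 0.43 (adjusted p = 0.625 in limma) in the other direction. The Dyx1c1 locus, on the plus strand of chromosome 9 from 72958785 to 72973064, shares exons with a readthrough gene, Gm44503, that spans Ccpg1, which had 330 to 498 and an LFC of 0.02. On the other strand it overlaps exons of Gm37710, at 57.5 to 187 and an LFC of 0.18. Gm44503, Gm49383 and Gm49384 at Dnaaf2, Gm15672 at Dnaaf5 and Gm41293 at Spag1 share exonic sequence with a member and were not analysed here. Reads of Dnaaf3 and Dyx1c1 may have been counted with these neighbours, which was not tested.

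The sequences before the starts of Zmynd10, Cfap126 and Dnaaf2 are shown because the former pair was high in the same libraries and Dnaaf2 had the match described here. They come from RefSeq on GRCm38.p6, read 5′ to 3′ on the strand of the gene, and stop before its first exon. Capitals mark a match to GTTGCC, the core of the X-box that RFX factors bind, here on the opposite strand as GGCAAC.
Zmynd10, chr9:107547054-107547297: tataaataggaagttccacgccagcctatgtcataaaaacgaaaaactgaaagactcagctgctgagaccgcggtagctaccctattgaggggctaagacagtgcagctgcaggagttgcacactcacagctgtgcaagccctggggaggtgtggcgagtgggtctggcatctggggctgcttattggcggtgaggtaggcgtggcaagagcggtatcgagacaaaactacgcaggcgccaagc
Cfap126, chr1:171113736-171113917: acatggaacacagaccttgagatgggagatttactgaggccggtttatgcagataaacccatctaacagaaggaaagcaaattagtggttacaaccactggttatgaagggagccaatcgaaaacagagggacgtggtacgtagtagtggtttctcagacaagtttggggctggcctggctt
Dnaaf2, chr12:69198430-69198679: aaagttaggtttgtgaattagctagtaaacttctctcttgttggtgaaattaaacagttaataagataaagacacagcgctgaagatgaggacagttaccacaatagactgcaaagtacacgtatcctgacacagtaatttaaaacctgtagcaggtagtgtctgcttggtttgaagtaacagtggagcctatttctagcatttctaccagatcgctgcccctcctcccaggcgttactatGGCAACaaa
In the 250 bases before the start, searched on both strands, GTTGCC occurred in 10.4% of 32851 promoters, TGACGTCA, the cyclic AMP response element, in 1.55%, and GTAAACA, a forkhead motif, in 3.17%. Promoter entries existed for 5 of the 9 genes, 7 entries in all. Cfap126 had further entries inside the gene, with windows from 171121411 and from 171122795, which were searched but are not printed. Among the 7 entries, that of Dnaaf2 alone had a match, to GTTGCC, beginning 9 bases before the start. Windows without a match say only that these letters do not occur there.

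The genes whose pattern over the 9 libraries was most like that of Zmynd10, by the root mean square difference of log2 of the value plus 1 after centring, were 1300017J02Rik (0.384), Uba1 (0.411), Gucy2e (0.449), Fam71f2 (0.491) and Cfap126 (0.499). For Cfap126 they were 1300017J02Rik (0.441), Fam71f2 (0.482), Zmynd10 (0.499), Uba1 (0.525) and Cluh (0.526). Uba1, an enzyme that activates ubiquitin, had 14.6 to 23.2 normalized counts in the other 6 libraries and 560, 559 and 737 in Prm2-/-. Cluh had 9.64 to 22.8 and then 289, 294 and 305, and Fam71f2 had 45.0 to 71.3 and then 2056, 2287 and 1886. For 1300017J02Rik and Gucy2e the other 6 libraries were listed at 0, so that the added 1 sets how close they can come. These genes were ordered by the same libraries that chose Zmynd10 and Cfap126.

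**Figure D4:**
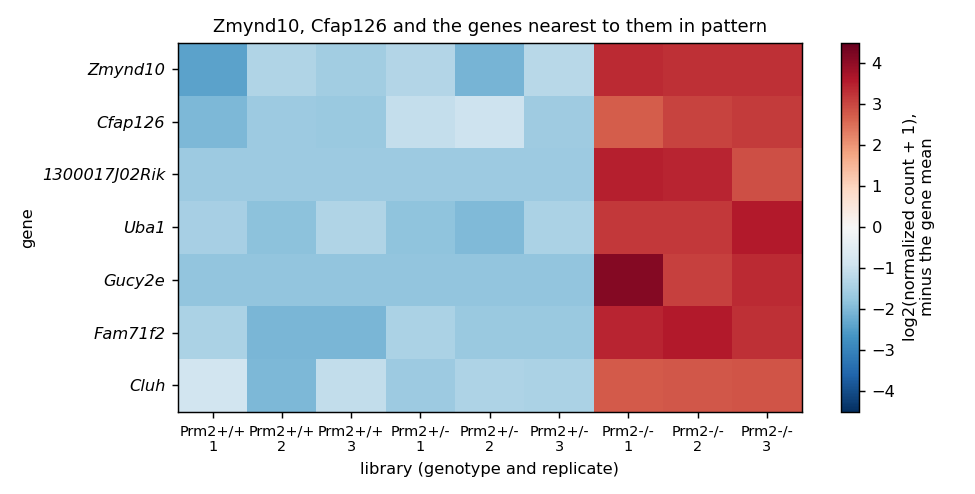
Log2 of the normalized count plus 1, centred on the mean over the 9 libraries, for Zmynd10, Cfap126 and the genes with the most like pattern, as a colour map with genes in rows and libraries in columns. All 7 rows are below their mean (blue) in the 6 libraries of Prm2+/+ and Prm2+/- and above it (red) in the 3 of Prm2-/-, the pattern by which they were picked.

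Other genes of the pathway were taken from lists of known assembly factors, dynein arm subunits and ciliary transcription factors. The first 2 lists hold earlier and later symbols of some genes, such as Dnaic1 and Dnai1, so they name more symbols than genes. Of 16 symbols of other assembly factors and chaperones, 13 had a row and all 13 were tested. Of these, 0 passed in either direction in any comparison. Their median LFC between Prm2-/- and Prm2+/+ was 0.09, against 0.02 over all genes. Of 18 outer arm and docking symbols, 16 had a row and 14 were tested, with 0 called and a median of 0.02. All 13 inner arm genes were tested, with 0 called and a median of -0.01. Of 8 ciliary transcription regulators, 7 were tested with 0 called and a median of 0.08. Of all tested genes 0.181% were called between Prm2-/- and Prm2+/+, so 0 calls in lists of this size say little. At an unadjusted p under 0.05 in limma the same comparison had 2, 2, 2 and 0 genes in these lists and 1091 among the 14893 genes tested. Those of the lists were Pih1d3, Dnal1, Ttc25 and Dnah10, higher in Prm2-/-, and 1110004E09Rik and Tctex1d2, lower, all named after their values were seen. Ttc25 had 467 to 492 in Prm2-/- and 331 to 383 in the other libraries, with an LFC of 0.38 (adjusted p = 0.380 in limma). Ruvbl1, an ATPase of the R2TP complex, had 102, 105 and 131 normalized counts in Prm2+/+, 128, 128 and 119 in Prm2+/- and 118, 117 and 124 in Prm2-/-. Foxj1, the leading transcription factor of motile cilia, had 480, 478 and 97.2 in Prm2+/+, 440, 517 and 553 in Prm2+/- and 422, 450 and 398 in Prm2-/-, with the same low replicate 3 of Prm2+/+ as Dnaaf2. Its LFC was 0.58 (SE 0.55, adjusted p = 0.79 in limma). Rfx2, a factor of ciliary genes in spermatids, had 553, 558 and 671 in Prm2+/+, 410, 610 and 535 in Prm2+/- and 525, 572 and 695 in Prm2-/-, with an LFC of 0.00. Ccdc103, an assembly factor chosen after its values were seen, had 17.7 in replicate 3 of Prm2+/+ and 166 to 196 in the other libraries. The medians also hide other genes that jumped within a genotype. Dnah17 ranged from 4.75 to 180 within Prm2+/+ and Dnaic2 from 21.9 to 184 within Prm2+/-, both named after their values were seen.

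**Figure D5:**
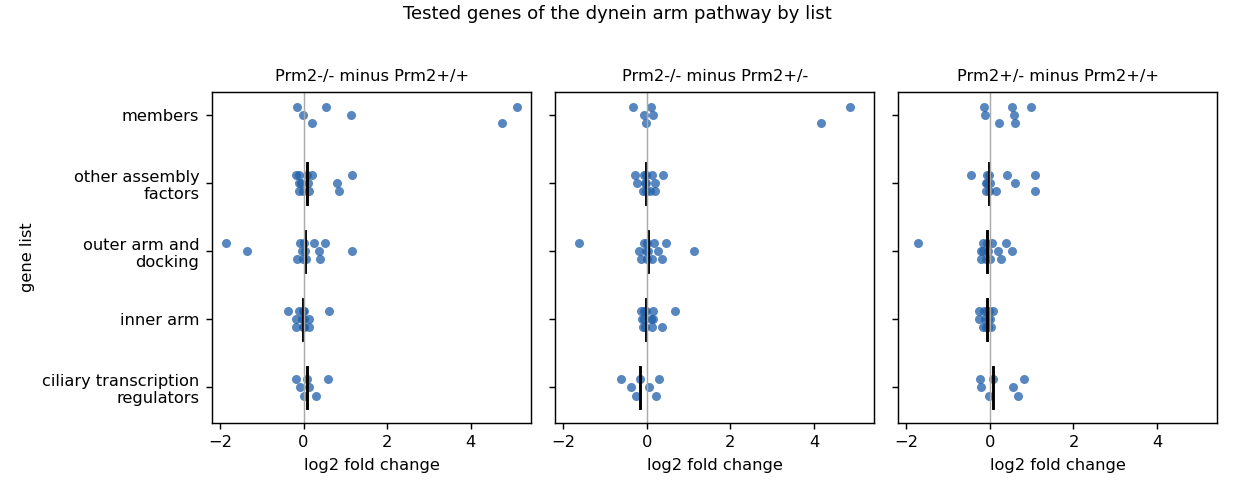
Fitted log2 differences of the tested genes of the pathway lists and of the members in the 3 comparisons, one point per gene, with the median of each list as a bar except for the members. Between Prm2-/- and Prm2+/+ the lists have medians between -0.01 and 0.09, and Zmynd10 (5.10) and Cfap126 (4.74) lie apart from all of them.

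Markers of cells that carry motile cilia were counted beside these values, since efferent ducts hold multiciliated cells. Of 8 markers of multiciliated cells, Mcidas and Sntn were listed at 0 in all libraries, and the summed level of the 8 was 832 to 1269 in Prm2+/+, 1182 to 1286 in Prm2+/- and 1243 to 1306 in Prm2-/-. Most of this level came from Deup1 and Lrrc23, so the sum says little of the other markers, and Gmnc and Tmem212 reached at most 2.97 and 2.03. In RNA of whole testis it cannot be told whether Deup1 and Lrrc23 came from multiciliated cells or from germ cells. Deup1 had 197, 624 and 292 in Prm2+/+, 607 to 683 in Prm2+/- and 619 to 688 in Prm2-/-. Lrrc23 had 470 to 640 over all libraries. Of 12 markers of efferent ducts and epididymis, 6 were listed at 0 in all libraries (Pax8, Krt18, Lcn5, Lcn8, Lcn9 and Adam28). Their sum was 45.3 to 102 in Prm2+/+, 95.9 to 195 in Prm2+/- and 165 to 192 in Prm2-/-, and thus higher in Prm2-/- than in Prm2+/+. In Prm2-/- most of this sum came from Cftr, an ion channel named after its values were seen, at 48.5, 16.1 and 6.63 in Prm2+/+, 55.4, 79.5 and 105 in Prm2+/- and 114, 119 and 99.3 in Prm2-/-. The LFC of Cftr was 2.58 between Prm2-/- and Prm2+/+ (adjusted p = 0.377 in limma), and for Prm2+/- against Prm2+/+ it was 2.07 (adjusted p = 0.842). Cftr was thus above all its Prm2+/+ values in each Prm2+/- library as well. So was Cfap126, whereas Zmynd10 overlapped between these genotypes. Aqp1, a water channel, was listed at 0 in Prm2+/+, at 0, 0 and 30.0 in Prm2+/- and at 15.4, 21.3 and 12.7 in Prm2-/- (adjusted p = 0.5545 between Prm2-/- and Prm2+/+ in limma). The LFCs of the other tested markers of this list were 0.02 for Pax2, -0.10 for Krt8 and 0.19 for Esr1. None of these markers was called (0), and their part in the difference of Zmynd10 and Cfap126 was not tested.

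The labelled tissue was checked by markers of germ cells and of the testis soma. Markers of elongating spermatids summed to 202814 to 226342 in all libraries and those of round spermatids to 6591 to 7524, with overlapping ranges in Prm2-/- and Prm2+/+. These are the stages that build the flagellum. Most of the elongating spermatid sum came from Prm1, Tnp1 and Tnp2, so it says little of the other markers. Akap4 had 208, 2133 and 194 in Prm2+/+, 1935, 1910 and 272 in Prm2+/- and 2077, 1980 and 2148 in Prm2-/-. Spaca1, of round spermatids, had 285 in replicate 3 of Prm2+/+ and 862 to 1066 elsewhere. Acrv1, Tssk1, Tssk2 and Catsper3 were highest in that library. Markers of spermatocytes summed to 11283 to 41298 in Prm2+/+, 38452 to 45119 in Prm2+/- and 35208 to 37158 in Prm2-/-, where the lowest value, that of replicate 3 of Prm2+/+, came with 2505 normalized counts of Ldhc, named after its values were seen, against 27414 to 36393 elsewhere. Of the 4 peritubular myoid markers, the sum was 293 to 325 in Prm2+/+, 254 to 277 in Prm2+/- and 226 to 271 in Prm2-/-, so that every Prm2-/- library lay below every Prm2+/+ library. The 3 of them that were tested had negative LFCs between Prm2-/- and Prm2+/+, -0.76 for Cnn1 (adjusted p = 0.522 in limma), -0.27 for Acta2 (adjusted p = 0.604) and -0.28 for Myh11 (adjusted p = 0.743). Sertoli markers summed to 2134 to 2920 in Prm2+/+, 2160 to 2280 in Prm2+/- and 2444 to 2697 in Prm2-/-, higher in Prm2-/- than in Prm2+/- without overlap. Most of this sum came from Clu, at 1649 to 1848 in Prm2+/- and 1920 to 2183 in Prm2-/-. Sox9, Wt1, Rhox5 and Gata4 overlapped between these genotypes. Over all libraries, Leydig markers summed to 1564 to 2286, those of spermatogonia to 215 to 329 and those of macrophages to 115 to 171, with Prm2-/- overlapping both other genotypes. None (0) of the markers was called in any comparison in limma, and the part of these sums in the difference of Zmynd10 and Cfap126 was not tested.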

How the data were processed

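RNA of testis from 9 libraries, 3 per genotype, was taken from the deposited table. According to the submitters' processing notes and the methods of the study, reads were trimmed with Trim Galore 0.4.5, mapped to GRCm38 with HISAT2 2.1, quantified with StringTie 1.3.3 and compared with DESeq2. The authors deposited normalized counts, a signal obtained when the counts of a library are divided by its size factor. Every value (100%, within 0.01 of a whole number) was a whole multiple of 1 step per library, so counts were recovered, although replicate 1 of Prm2+/- has a step close to 1, which makes the evidence weaker there. The counting is not stated to use strand.

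Genes were kept by filterByExpr of edgeR on the recovered counts, which left 14893. Genotypes were compared with limma (lmFit, then eBayes, trend = TRUE) using log2(value + 1), in all 9 libraries, with genotype as the only term. A gene was called where its p adjusted by Benjamini-Hochberg lay under 0.05 and its LFC exceeded 0.5 in size. A fold change on this scale understates the change of low genes. The quasi-likelihood test of edgeR and DESeq2, both on recovered counts, were alternatives. On simulated counts for the comparison of Prm2-/- and Prm2+/+ for 14893 genes, limma found 54% of genes changed 4-fold and 91% of those changed 16-fold, with 6 false calls. There edgeR found 53% and 90%, with 4 false calls, and DESeq2 found 71% and 92%, with 48. With no gene changed, DESeq2 made 15 false calls, and limma and edgeR made 0.

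The members and the lists of genes were chosen with earlier results of these data known. Genes named are the members, Prm2, Foxj1, Rfx2, Ruvbl1, called genes of the lists (there were 0), genes that overlap a member or lie next to Zmynd10 and Cfap126, and the 5 genes most like each of the latter pair. Other genes, among them Ccdc103, Ldhc and the named markers, were named after their values were seen. Positions are those of GENCODE M21. Intervals are 95% intervals of limma. Analyses used Python 3.11.15, edgeR 4.0.16, limma 3.58.1 and DESeq2 1.42.0 under R 4.3.3.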

Additional observations from a re-analysis of the deposited data

How the results depend on the processing

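Zmynd10 and Cfap126 were the called members, 2 of 7, between Prm2-/- and each of the other genotypes and 0 of 7 between Prm2+/- and Prm2+/+, in all 19 alternative fits per comparison, which varied the scaling, the pseudocount (0.5 and 5), the filter on low counts, the libraries in the fit, the tool and a replicate block. The pair was chosen by Prm2-/- against Prm2+/+ in these same libraries, so its calls with Prm2-/- are no independent support. Replicate numbers did not pair the libraries (correlations of their deviations of -0.04 to 0.04), and with the replicate block the members called were 2, 2 and 0. Of 21 member differences, 10 changed sign in some fit and none of those was called. Spag1 between Prm2-/- and Prm2+/+ had an LFC of -0.015 in edgeR, -0.020 in DESeq2 and -0.019 in DESeq2 with 6 samples. Leaving out each library in turn gave, between Prm2-/- and Prm2+/+, -0.14 to 0.17 for Dnaaf1, -0.064 to 0.87 for Dnaaf5 and -0.42 to 0.52 for Spag1, between Prm2-/- and Prm2+/-, -0.0065 to 0.21 for Dnaaf1, -0.33 to 0.12 for Dnaaf5 and -0.061 to 0.014 for Lrrc6, and between Prm2+/- and Prm2+/+, -0.23 to 0.076 for Dnaaf1, -0.00032 to 0.93 for Dnaaf5, -0.091 to 0.85 for Spag1 and -0.084 to 0.50 for Zmynd10. Between Prm2-/- and Prm2+/+, calls over all genes were 27 in limma, 9 with at least 10 counts in every sample, 15 with the replicate block, 53 with only the 6 samples compared, 131 in DESeq2 and 231 in DESeq2 with 6 samples. The higher counts of DESeq2 go with more false calls on simulated counts, 48 against 6 in limma. With 3 libraries per genotype, a member that was not called is not shown to be unchanged, since limma found 54% of 4-fold changes on simulated counts.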
